A study of Mus musculus with 11 samples.

Results

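Abundant nuclear long noncoding RNAs were examined in hippocampal RNA-seq of F1 offspring. The group was set by a list of 6 gene symbols, Malat1, Neat1, Miat, Snhg11, Gas5 and Snhg1, whose Ensembl identifiers were looked up in the count tables through the GENCODE annotation of GRCm38. Of the 6 genes, 5 had a row among the 38293 gene rows of the tables, and all 5 passed the filter on low counts. The identifier of Snhg1 (chromosome 19, 8723475 to 8726443, plus strand) matched no row, so Snhg1 was not analysed here.

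The mice were wildtype F1 hybrids of the strain combination 129S6/SvEv x C57BL/6J, 14 weeks old, born to 129S6/SvEv dams mated with C57BL/6J males. CD mice (n = 6, 3 males and 3 females) came from dams on a control diet with 2.3 mg folic acid per kg. FD mice (n = 5, 2 males and 3 females) came from dams that had received 40 mg folic acid per kg before mating, and every dam was given the control diet from mating onwards, so the offspring themselves did not eat the supplemented diet. Whole hippocampus was sequenced from each mouse, and reads of neurons, glia and vessels are therefore mixed in every value. The comparisons ask whether these RNAs differed between CD and FD F1 mice and how they moved with the no_feature share. This share is the percentage of uniquely aligned reads that were assigned to no annotated gene and counted in the no_feature line of each mouse.

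Long noncoding RNAs are transcripts without a long open reading frame that are often spliced and polyadenylated like mRNA. Many of them stay in the nucleus, where Malat1 collects in nuclear speckles, the storage sites of splicing factors, and Neat1 forms the scaffold of paraspeckles. Miat, also called Gomafu, is a neuronal RNA that forms its own nuclear spots and binds splicing factors. Snhg11, Gas5 and Snhg1 are host genes of small nucleolar RNAs (snoRNAs), which are cut from their introns. Spliced Gas5 and Snhg1 RNAs are exported to the cytoplasm and removed there by nonsense-mediated decay, so these RNAs do not all remain in the nucleus.

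Malat1 (ENSMUSG00000092341, chromosome 19, 5795690 to 5802672, minus strand) and Neat1 (ENSMUSG00000092274, chromosome 19, 5824708 to 5845478, minus strand) are neighbours, and each is annotated as a lincRNA with a single merged exon, of 6983 and 20771 bp. They share an unusual 3′ end, which is shown because it sets this pair apart from the other RNAs of the group. A pair of U-rich stretches and an A-rich stretch near the processed end of both RNAs are known to fold into a triple helix that stands in for a poly(A) tail. The stretches that both sequences have in common, 3 stretches of 11 to 16 bases, are in capitals (GENCODE transcripts, GRCm38, written 5′ to 3′ as DNA letters; Malat1 at chr19:5795982-5796065 and Neat1 at chr19:5824708-5824797, both on the minus strand).
Malat1: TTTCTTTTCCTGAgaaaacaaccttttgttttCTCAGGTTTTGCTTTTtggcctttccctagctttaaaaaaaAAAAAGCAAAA
Neat1: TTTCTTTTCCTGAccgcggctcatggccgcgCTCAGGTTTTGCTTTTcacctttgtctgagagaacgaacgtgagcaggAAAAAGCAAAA
Searched on the transcript strand alone, TTTCTTTTCCTGA occurred in 0.0247%, CTCAGGTTTTGCTTTT in 0.00141% and AAAAAGCAAAA in 0.436% of the 141767 annotated transcripts. All 3 stretches within 90 bases occurred in 2 transcripts, which belong to Malat1 and Neat1. In Malat1 the A-rich stretch continues a run of 12 A, the longest in the transcript, and 298 annotated bases follow that run. In Neat1 the A-rich stretch is the last sequence of the annotated gene.

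Miat (ENSMUSG00000097767, chromosome 5, 112213228 to 112229395, minus strand) is a spliced lincRNA with 9293 bp of exons. Its repeats of TACTAAC, the sequence of an intron branch point, are known to bind the splicing factor Sf1. The longest Miat transcript held 6 copies in a pair of clusters, in capitals here (GRCm38, minus strand, chr5:112217309-112217460 and chr5:112216752-112216812).
Miat cluster 1: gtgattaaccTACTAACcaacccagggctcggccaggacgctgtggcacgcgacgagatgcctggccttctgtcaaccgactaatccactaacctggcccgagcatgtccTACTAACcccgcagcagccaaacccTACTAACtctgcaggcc
Miat cluster 2: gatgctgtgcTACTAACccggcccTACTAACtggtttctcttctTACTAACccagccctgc
At least 1 TACTAAC was found on the transcript strand of 3.6% of all annotated transcripts, and 6 or more were found in 5 transcripts (0.00353%) of 4 genes. The longest Neat1 transcript held 1 copy, and the longest transcripts of Malat1, Snhg11, Gas5 and Snhg1 held 0.

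Snhg11 (ENSMUSG00000044349, chromosome 2, 158375638 to 158386145, plus strand) is listed by this annotation as protein-coding despite its name. Gas5 (ENSMUSG00000053332, chromosome 1, 161034422 to 161038539, plus strand) is listed as a processed transcript. Of the snoRNAs inside Gas5, 9 had a row in the tables, and all 9 were listed at 0 counts in every mouse, as were the 8 snoRNA rows inside Snhg1. In Snhg11, the intronic snoRNA Gm25129 had 3 to 45 counts per mouse, and a further snoRNA row was at 0. The 9 rows inside Gas5 lie within its annotated exons (60 to 84 bp each), as does the row at 0 inside Snhg11 (133 bp). The 8 rows inside Snhg1 lie within its annotated exons as well (65 to 126 bp each). Where the host gene was also counted, a read there would be ambiguous between both genes, so the zeros do not measure the snoRNAs. Malat1 and Miat are overlapped on the opposite strand by Gm37376 (453 bp of exon) and Gm26953 (2260 bp), which had no row. Whether strand was used in counting is not given in the sources used here, so reads from these partners cannot be told apart from those of Malat1 and Miat.

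Levels were high and uneven. Counts were scaled to a common library size with TMM factors and are given as CPM. Snhg11 was the most counted of the group, with 1525 ± 365 CPM (SD, n = 11), and ranked 36 of 20589 genes. Miat had 594 ± 115 CPM (rank 195), Malat1 577 ± 232 (rank 206), Neat1 119 ± 24.9 (rank 1903) and Gas5 90.4 ± 5.20 (rank 2609). Per kilobase of merged exon, the mean level was 179 CPM for Snhg11, 82.6 for Malat1, 64.0 for Miat, 24.0 for Gas5 and 5.72 for Neat1. Between neighbours in this order, Snhg11 lay above Malat1, Miat above Gas5 and Gas5 above Neat1 in 11 of 11 mice (exact sign-flip permutation test on log2 ratios, two-sided p = 0.000977 each, the smallest that 11 mice allow). Malat1 and Miat did not differ beyond their spread, with Malat1 higher in 7 of 11 mice (p = 0.0771, same exact test). Counts per gene do not separate isoforms, and Neat1 is known to have a short and a long form, so its value per kilobase of merged exon is an average over both. Gas5 has 25 annotated transcripts, whose merged exons cover 3760 bp of its 4118 bp span, while its longest transcript has 2556 bp. Over a shorter length its value per kilobase would be higher, so its place in the order holds for merged exon length only. No other length was tried.

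The mice differed widely in these RNAs, except in Gas5. From the lowest to the highest mouse, CPM spanned 3.74-fold for Malat1, 2.51-fold for Snhg11, 2.16-fold for Miat, 1.90-fold for Neat1 and 1.19-fold for Gas5. Within the 11528 genes whose mean reached 5 CPM, the SD of log2 CPM over the 11 mice lay at percentile 99.8 for Malat1, 99.1 for Snhg11, 97.3 for Miat, 96.8 for Neat1 and 23.4 for Gas5. At least 1051 reads were counted for each of the 5 genes in every mouse.

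None of the 5 RNAs passed the test between FD and CD F1 mice. Malat1 had CPM values of 351, 872, 769, 804 and 280 in the FD mice (female 1, male 1, female 2, male 2 and female 3), and in the 6 CD mice the lowest was 233, the median 590 and the highest 758. Both groups held mice with low and mice with high Malat1 values, and their ranges overlapped in part. FD male 1 (872), FD male 2 (804) and FD female 2 (769) lay above every CD mouse, and the lowest CD mouse (233) lay below every FD mouse. The log2 fold change of Malat1 in FD relative to CD was 0.18 (SE 0.30, adjusted p = 1.0, quasi-likelihood test of edgeR, Benjamini-Hochberg adjustment over 20589 genes).

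Miat had CPM values of 500, 682, 709, 609 and 498 in the FD mice in the same order, against a lowest value of 358, a median of 613 and a highest of 772 in CD. For Snhg11 the FD values were 1416, 1852, 1858, 1811 and 1058, and the CD values had 757 as the lowest, 1554 as the median and 1903 as the highest. For both RNAs the extreme mice on either side belonged to the CD group. The log2 fold changes were 0.02 (SE 0.14) for Miat and 0.13 (SE 0.18) for Snhg11.

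Neat1 had CPM values of 135, 117, 103, 139 and 110 in the FD mice and a lowest value of 88.8, a median of 103 and a highest of 169 in CD. Gas5, a growth-arrest-associated RNA, had 84.9, 89.8, 87.6, 94.2 and 85.1 in FD and a lowest value of 83.7, a median of 91.1 and a highest of 99.9 in CD. The FD values of both RNAs lay inside the CD range. Their log2 fold changes were 0.05 (SE 0.14) for Neat1 and -0.06 (SE 0.053) for Gas5. The adjusted p was 1.0 for each of the 5 genes, and 0 of 5 were called, against 14 of 20589 genes (0.0680%) at an adjusted p under 0.1. At an unadjusted p under 0.05 the count was 0 of 5, against 534 of all genes (2.59%), and DESeq2 called 0 of 5, against 18 genes (0.0874%). The standard errors of Malat1, Snhg11, Miat and Neat1 were 0.14 to 0.30, and p was adjusted over 20589 genes. A change in these RNAs had to be several times its standard error to be called, so smaller changes could be missed with this number of mice. The smallest change that could be called was not computed.

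**Figure D1:**
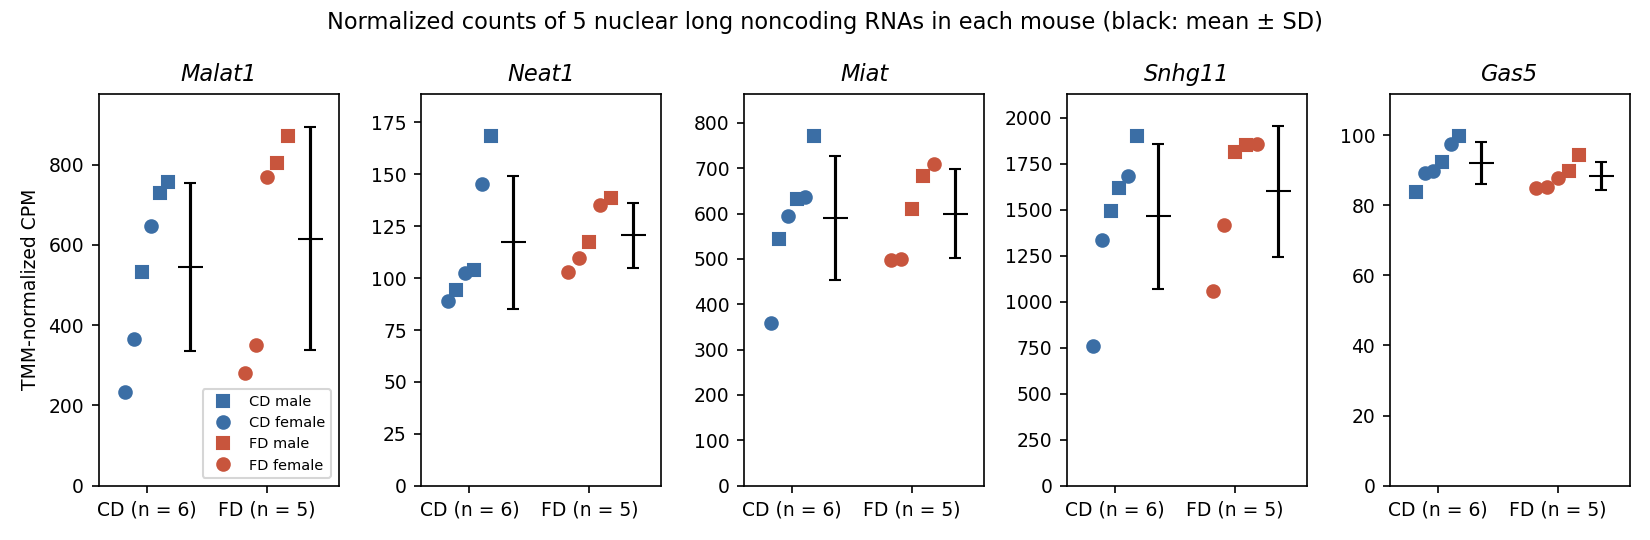
TMM-normalized CPM of each RNA in each mouse, with CD mice in blue and FD mice in red, males as squares and females as circles, sorted by value within a group, and the mean ± SD in black. The groups overlap in every panel, and the spread is wide for Malat1 (233 to 872) and narrow for Gas5 (83.7 to 99.9).

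For Malat1, Miat and Snhg11 the spread followed the no_feature share. This share ranged from 8.34% (CD female 1) to 12.9% (CD male 2) with a median of 11.1%. No gap between neighbouring mice exceeded 28.3% of the range, so the mice did not fall into separate clusters in the share itself. In the ratio of Malat1 to Neat1 counts a gap was seen, with no mouse between 2.62 (CD female 1) and 4.32 (CD male 2). The part of this gap in the relation of Malat1 with the share was not tested. The FD mean was 11.2% ± 1.30 (SD, n = 5) and the CD mean 10.8% ± 1.5 (SD, n = 6), and this difference was smaller than the spread between mice (two-sided exact permutation test, p = 0.608). Reads assigned to no gene can come from introns of annotated genes, intergenic DNA or unannotated transcripts, and the counts do not separate these sources. In bulk tissue, fewer cells of a type and less RNA per cell cannot be told apart.

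Malat1, Miat and Snhg11 were higher in mice with a larger share. With diet as a covariate, the level of Malat1 changed by 0.48 on the log2 scale per percentage point of the share (SE 0.050, adjusted p = 4.84e-05 from the edgeR test over all genes), which is 1.39-fold. For Snhg11 the slope was 0.28 (SE 0.029, adjusted p = 4.84e-05), or 1.21-fold per point, and for Miat it was 0.22 (SE 0.021, adjusted p = 3.43e-05), or 1.16-fold per point. Among the 11563 genes with an average of at least 5 CPM, these slopes lay at percentile 99.96, 99.8 and 99.4.

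Neat1 and Gas5 did not pass the test. The slope of Neat1 was 0.11 (SE 0.047, adjusted p = 0.140) and that of Gas5 was 0.027 (SE 0.018, adjusted p = 0.368). Neat1 shares its 3′ end with Malat1 and lies beside it on chromosome 19, and the pair was compared directly. The log2 ratio of Malat1 to Neat1 counts within a mouse correlated with the share at r = 0.712 (p = 0.0154, permutation test) and rho = 0.627 (p = 0.0435), and r was 0.822 without the 2 mice farthest from the median share (1 of 10 ratios computed between the RNAs, unadjusted p). The ratio had r = 0.514 (exact permutation p = 0.321) in the 6 CD mice and r = 0.802 (exact permutation p = 0.0514) in the 6 females, so within these groups its relation with the share did not pass 0.05. In all, 3 of 5 RNAs were called higher, against 16.8% of all 20589 genes called, 7.99% higher and 8.80% lower. Among genes with an average of at least 5 CPM, 10.7% were called higher.

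The values of single mice show the pattern. CD female 1, with the lowest share, had the lowest value of Malat1 (233), Miat (358) and Snhg11 (757). FD female 3 and FD female 1 came next in the share, at 9.63% and 10.04%, and had Malat1 values of 280 and 351. The 4 mice with a share above 12%, 3 of them FD and 1 CD, had Malat1 values from 729 to 872 and Snhg11 values from 1811 to 1903. In Neat1 the mice with a share above 12% ranged from 103 to 169, and CD female 3, with a share of 10.5%, had 145.

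Over the 11 mice, log2 CPM correlated with the share at Pearson's r = 0.928 for Malat1 (p = 4e-05), 0.951 for Miat (p = 2e-05) and 0.943 for Snhg11 (p = 1e-05, the smallest that 100000 resamples can give; two-sided permutation tests). Spearman's rho was 0.864 (p = 0.00111), 0.936 (p = 0.00013) and 0.955 (p = 4e-05) in the same permutation tests. Without the 2 mice farthest from the median share, CD male 2 and CD female 1, r was 0.938, 0.899 and 0.919. Neat1 had r = 0.504 (p = 0.113, permutation test) and rho = 0.455 (p = 0.163), and r was -0.027 without those 2 mice, so the value for Neat1 rests on them. Gas5 had r = 0.371 (p = 0.261, permutation test) and rho = 0.400 (p = 0.225), and 0.172 without those 2 mice. These 5 correlations were computed as a family, and the adjustment for multiple tests is that of the slopes over all genes.

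**Figure D2:**
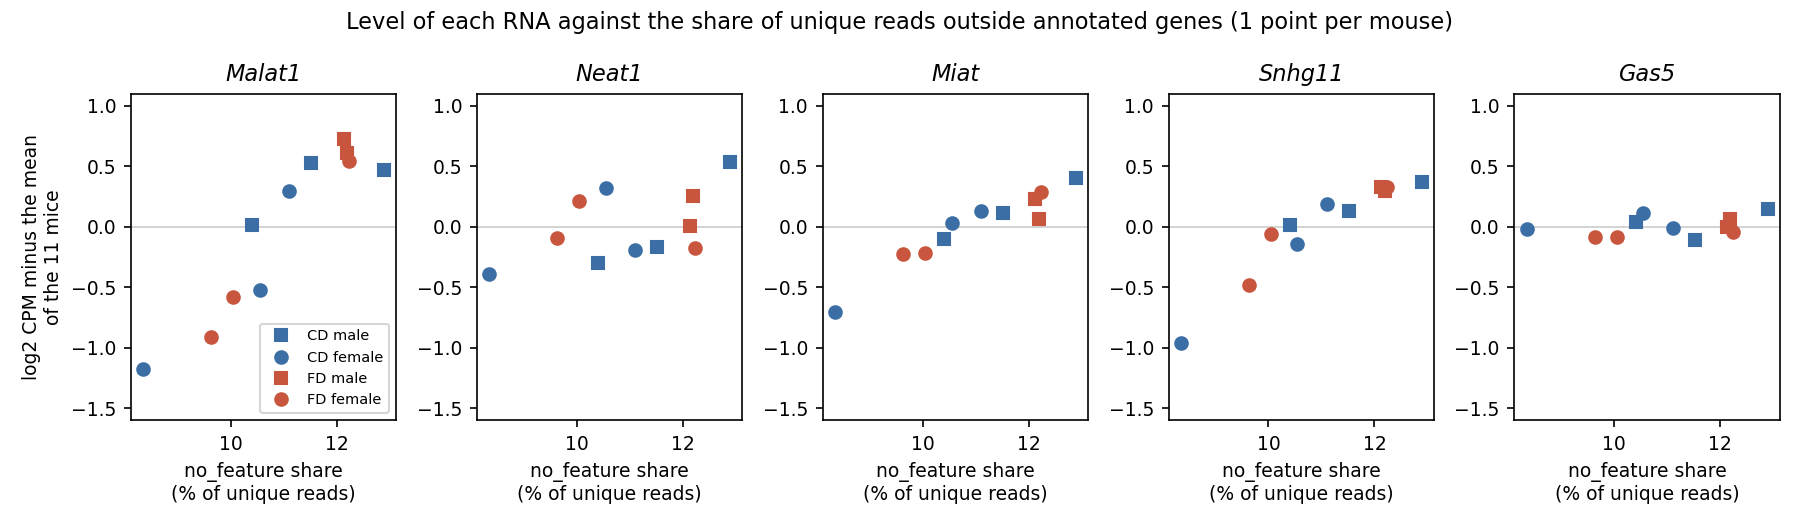
Deviation of log2 CPM from the mean of the 11 mice (y axis) against the no_feature share in percent of uniquely aligned reads (x axis), 1 point per mouse, with CD in blue, FD in red, males as squares and females as circles. Malat1, Miat and Snhg11 rise from the mouse at 8.34% to those above 12%, while Gas5 stays near its mean and Neat1 shows no steady order.

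Other measures of the libraries moved with the share as well. The percentage of unique reads that were ambiguous between genes had r = -0.873 with the share (p = 0.00029, permutation test over 11 mice). Both are percentages of the same unique reads, so a larger share leaves fewer reads that can be ambiguous, and part of this correlation follows from the shared total. The share of gene counts on ribosomal protein genes had r = -0.721 (p = 0.0116) and rho = -0.591 (p = 0.0606), and reads with several alignments had r = -0.706 (p = 0.0140) and rho = -0.500 (p = 0.120) in the same permutation tests. Without the 2 mice farthest from the median share, r was -0.818, -0.680 and -0.601. The total count on genes, which ranged from 11737554 to 44447006, had r = -0.470 on the log2 scale (p = 0.143, permutation test). With diet and the log2 total count as covariates, the slopes were 0.49 for Malat1, 0.21 for Miat and 0.28 for Snhg11 (edgeR adjusted p = 0.000288, 0.000288 and 0.000328). The part of ambiguous reads, of reads with several alignments and of ribosomal protein genes in the result was not tested. Without CD female 1, the mouse with the lowest share, the slopes were 0.48, 0.18 and 0.22 (edgeR adjusted p = 0.00451 each), while the number of all genes called fell to 316 (1.09% called higher). The labels name no batch of extraction or sequencing.

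The sexes differed in the share by an amount that did not reach the threshold. It was 11.8% ± 0.933 (SD, n = 5) in males and 10.3% ± 1.33 (SD, n = 6) in females (exact permutation test, two-sided p = 0.0671). Malat1 had CPM values of 533, 729 and 758 in the CD males and 872 and 804 in the FD males, and in the 6 females the lowest was 233, the median 359 and the highest 769. Each male lay above the female median, but 2 females, CD female 2 with 647 and FD female 2 with 769, lay among the males. These 2 females also had the highest shares of their sex, 11.1% and 12.2%.

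Malat1 was higher in males by 0.77 on the log2 scale (SE 0.23, adjusted p = 0.0899, edgeR test with diet as covariate), the only call among the 5 RNAs, against 6.11% of all genes called between the sexes. This call did not hold with the share as a further covariate, where the value was 0.23 (SE 0.14, edgeR adjusted p = 0.675) and 9 genes in all were called (0.0437%). It was also lost on leaving out any of 9 of the 11 mice in turn, with adjusted p from 0.143 to 0.196, and kept without CD female 2 (adjusted p = 0.0126) or FD female 2 (0.0174). Snhg11 had a log2 difference of 0.38 (SE 0.15, adjusted p = 0.168), Miat 0.24 (SE 0.13, 0.296), Neat1 0.13 (SE 0.14, 0.648) and Gas5 0.043 (SE 0.052, 0.704) in the same edgeR test.

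The relation with the share was also seen among the females. In the 6 females alone, r was 0.951 for Malat1 and 0.975 for Miat (exact permutation test, p = 0.00139 each), and 0.957 for Snhg11 (p = 0.00417). It was 0.203 for Neat1 and 0.116 for Gas5 (p = 0.711 and 0.799, same exact test). No correlation was computed over the 5 males, since 6 mice were set as the minimum. A slope fitted to the males alone, with diet as covariate and 2 residual degrees of freedom, was 0.17 for Malat1 (SE 0.059), 0.20 for Miat (SE 0.036) and 0.14 for Snhg11 (SE 0.028). None of these was called (edgeR adjusted p = 0.854, 0.369 and 0.505), in a fit that called 2 genes in all, and the slope of Neat1 was 0.35 (SE 0.055, adjusted p = 0.369). Whether the slopes differ between the sexes was not tested. With diet and sex as covariates, the slopes were 0.42 for Malat1, 0.24 for Miat and 0.28 for Snhg11 (edgeR adjusted p = 0.00125, 0.000333 and 0.00101), while 1.85% of all genes were called higher. In the CD mice alone (n = 6) r was 0.894, 0.975 and 0.940 (exact permutation test, p = 0.00833, 0.00278 and 0.00556).

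With the share as a covariate, the differences between FD and CD mice shrank for Malat1, Neat1 and Snhg11 and no gene of the 5 passed the test. Malat1 had a log2 fold change of -0.087 (SE 0.12), Miat -0.050 (SE 0.054), Neat1 0.024 (SE 0.12), Snhg11 0.023 (SE 0.071) and Gas5 -0.071 (SE 0.048), each with an adjusted p of 1.0 in the edgeR test. The standard errors of all 5 RNAs were smaller than without the share. For Neat1 the standard error went from 0.14 to 0.12 and for Gas5 from 0.053 to 0.048. The diet effect did not differ between the sexes for any gene at an adjusted p under 0.1 (edgeR interaction term, 0 of 20589 genes or 0.00%, with 391 at an unadjusted p under 0.05), and no RNA of the 5 was among those 391.

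**Figure D3:**
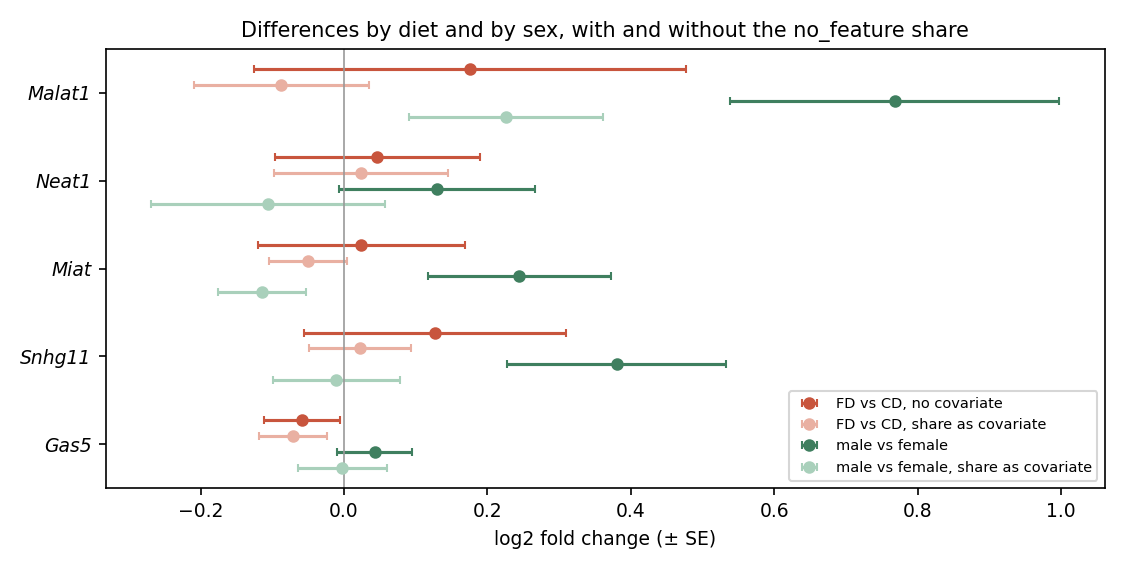
Log2 fold changes with their standard errors (x axis) for each RNA (y axis), for FD against CD without a covariate (dark red) and with the no_feature share (light red), and for males against females without (dark green) and with the share (light green). The male to female difference of Malat1 is 0.77 without and 0.23 with the share, and every diet value lies within 1.5 standard errors of 0.

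Of the 11523 other genes whose mean reached 5 CPM, those most like each RNA over the 11 mice are given by Pearson's r of log2 CPM, as a description. For Malat1 they were Son (r = 0.988), which encodes a core protein of nuclear speckles, Hook1 (0.982), a microtubule-linked adaptor, and Cdc7 (0.976), a replication kinase. For Snhg11 they were the maternally expressed long noncoding RNA Meg3 (0.993) and Ttc14 (0.986). For Miat they were Taz (0.978), Cfap100 (0.977) and Pnisr (0.975), the last encoding a serine/arginine-rich nuclear protein. Their slopes on the share, from 0.11 to 0.28 on the log2 scale per percentage point, go with this choice over the same mice and are a description.

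Neat1 and Gas5 had other neighbours. For Neat1 they were Robo4 (r = 0.936), an endothelial guidance receptor, Megf10 (0.929), a glial engulfment receptor, and Fnbp1 (0.913). For Gas5 they were Haus6 (0.856), a subunit of the augmin complex of the spindle, Zfp386 (0.849) and Sypl (0.838). Between the RNAs themselves, r was 0.863 for Malat1 and Miat, 0.928 for Malat1 and Snhg11 and 0.934 for Miat and Snhg11, against 0.211 for Malat1 and Neat1 and 0.202 for Malat1 and Gas5.

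Further nuclear long noncoding RNAs showed part of the same pattern. Of a list of 16, 10 had a row, and 5 of these 10 were higher with the share and 0 lower (7.99% and 8.80% of all genes), with a median slope of 0.094 on the log2 scale against -0.0039 for all genes. Meg3 had 1272 to 3127 CPM and a slope of 0.28 (SE 0.024, adjusted p = 3.1e-05). Mirg, from the same imprinted region as Meg3, had a slope of 0.15 (SE 0.024, adjusted p = 0.00098) in the same edgeR test. Rian, Firre and Ftx were the other 3, and Tug1 had a slope of -0.0015 (SE 0.018). For diet 0 of 10 were called, and the smallest p belonged to Mirg (log2 fold change 0.14, SE 0.11) and Tug1 (0.055, SE 0.049). Without CD female 1, 3 of the 10 were called with the share.

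Other host genes of snoRNAs gave no count that stood away from that over all genes. Of a list of 18 further host genes 10 had a row, and 1 of these 10, Snhg17, was higher with the share (slope 0.16, SE 0.028, edgeR adjusted p = 0.00299) and 0 were lower, near the 7.99% and 8.80% of all genes, with a median slope of 0.021. Snhg12 had a slope of 0.057 (SE 0.027, adjusted p = 0.184). For diet 0 of 10 were called, and the smallest p were those of Snhg15 (log2 fold change -0.25, SE 0.12, adjusted p = 1.0) and Snhg17 (0.16, SE 0.12). The list of 14 nonsense-mediated decay factors had 1 gene higher with the share, the kinase gene Smg1 (slope 0.21, SE 0.039, edgeR adjusted p = 0.00467), and 1 lower, Eif4a3 of the exon junction complex (-0.077, SE 0.020, 0.0205), again near the 7.99% and 8.80% of all genes. Its median slope was -0.010, and Upf1 and Smg9 had the smallest p for diet (log2 fold changes -0.087, SE 0.054, and -0.14, SE 0.092, not called).

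Genes for proteins of the nuclear bodies to which Malat1 and Neat1 belong were set beside the 7.99% of all genes called higher and 8.80% lower (10.7% higher at an average of at least 5 CPM). Of 20 genes for speckle and splicing proteins, 15 were higher with the share and 1, U2af2, was lower, with a median slope of 0.078. Luc7l3 and Clk4, a splicing factor gene and a kinase gene for serine/arginine-rich proteins, had the smallest p, with slopes of 0.16 (SE 0.017, adjusted p = 4.84e-05) and 0.18 (SE 0.019, adjusted p = 4.66e-05). Sf1, whose protein binds TACTAAC, was among the genes that did not pass the test. Of 16 genes for paraspeckle proteins, 6 were higher and 0 lower, with a median slope of 0.010. Cpsf6, which encodes a subunit of a cleavage factor in 3′ end formation, had the smallest p, with a slope of 0.12 (SE 0.019, adjusted p = 0.00105).

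None of the speckle, splicing or paraspeckle genes was called for diet. The smallest p for diet were those of Taf15 and Pspc1 among the paraspeckle genes (log2 fold changes -0.096, SE 0.049, and -0.081, SE 0.062) and Srsf3 and Qk among the speckle and splicing genes (0.078, SE 0.055, and 0.068, SE 0.052). Without CD female 1, 8 of the 20 speckle and splicing genes and 4 of the 16 paraspeckle genes were called with the share, all higher, against 1.09% of all genes. With diet and sex as covariates these counts were 11 and 4, against 1.85%. The lists were not tested as sets.

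**Figure D4:**
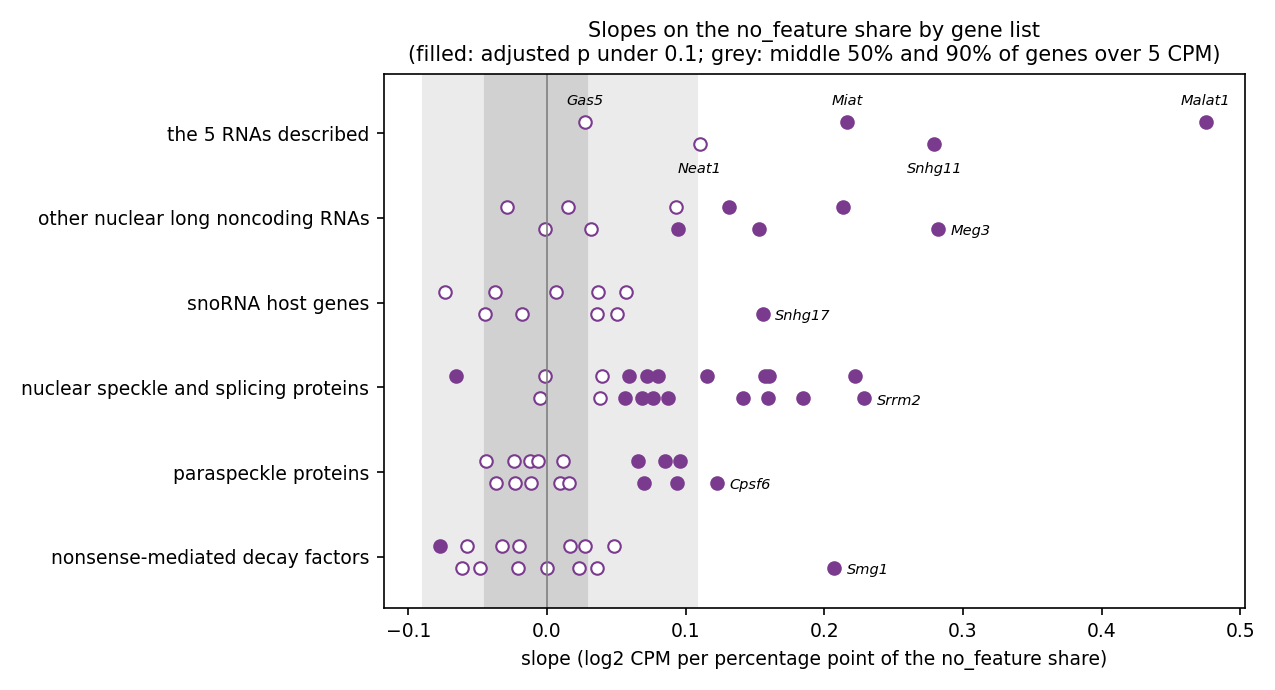
Slope of log2 CPM per percentage point of the no_feature share (x axis) for each gene (points) of each list (rows), filled where the adjusted p was under 0.1, with the grey bands holding the middle 50% and 90% of the 11563 genes over 5 CPM. Malat1 has the largest slope shown (0.48), and Gas5 lies inside the inner band.

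Cell type markers were compared to see whether the makeup of the tissue moved with these RNAs. The 7 neuronal markers summed to between 11125 and 12715 CPM in FD and between 11884 and 12304 in CD mice, and the 6 markers of hippocampal fields to between 654 and 768 in FD and between 694 and 757 in CD, so markers of neurons and of hippocampal fields were present in every mouse. With the share, 0 of 7 neuronal markers were called higher and 2 lower, and 0 of 6 hippocampal field markers higher and 1 lower. Over all 20589 genes, 7.99% were called higher and 8.80% lower. Protein-coding genes averaging 5 CPM or more had 1186 of 11192 called higher and 1663 lower. The marker lists are short, and their counts were not tested against these rates. Of the endothelial markers, 2 of 4 were higher with the share and 0 lower, and their summed level ranged from 129 to 179 CPM in FD and from 118 to 172 in CD. No marker of astrocytes, oligodendrocytes, microglia, choroid plexus, thalamus, striatum, meninges or blood was called higher with the share. Lower calls were made for 2 of 4 striatal markers, Adora2a and Ppp1r1b, 1 of 3 thalamic markers, Ramp3, and 1 of 5 microglial markers, Tmem119. The summed level of the endothelial markers correlated with the share at r = 0.775 (p = 0.00505) and rho = 0.736 (p = 0.0126), that of hippocampal field markers at r = -0.697 (p = 0.0163) and rho = -0.809 (p = 0.00401), and that of neuronal markers at r = -0.608 (p = 0.0462) and rho = -0.745 (p = 0.0114), in permutation tests over the 11 mice, unadjusted over the 11 lists. Without the 2 mice farthest from the median share, r was 0.524, -0.631 and -0.760. The part of these cell types in the slopes of Malat1, Miat and Snhg11 was not tested.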

How the data were processed

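Total RNA of whole hippocampus from 11 mice was sequenced as single-end reads. After trimming and alignment to mm10 (GRCm38) with STAR, the authors deposited raw counts of uniquely aligned reads per Ensembl gene for each mouse, followed by summary lines. The submitters' processing notes name featureCounts, whereas those lines have the form of HTSeq. The annotation release, RNA selection and strand setting are not given in the sources used here. Reads with several alignments are not in the counts.

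GENCODE names were matched to 94.9% of rows. The 20589 genes that reached 10 counts over all mice were tested with edgeR 4.0.16 in R 4.3.3 (TMM, quasi-likelihood test, Benjamini-Hochberg adjustment, threshold 0.1 after the study's methods). FD was compared with CD without covariates, and the slope on the no_feature share and the sexes were fitted with diet as covariate. The standard error was the size of the log2 fold change divided by the square root of F. Log2 CPM used a prior count of 2. Scripts were tested on simulated data. Alternatives included DESeq2 1.42.0, other scalings, filters and covariates, and each mouse left out. The log2 total count as covariate, females or males only for the slope, sex with the share for diet, and CD mice only for the correlations were chosen after seeing the data.

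Total counts on genes were 11737554 to 44447006 per mouse. Tables of mice in the same group differed beyond sampling noise (chi-square per degree of freedom 4.39 to 30.2). The labels do not name litters. The genes and lists were chosen with earlier results of these data known. Named genes are the listed RNAs, the 3 genes most like each, and from each list the 2 with the smallest p for diet and for the share. Some genes that this rule selects are not reported here. Other list members were named after their values were seen.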

Additional observations from a re-analysis of the deposited data

How the results depend on the processing

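Malat1, Miat and Snhg11 were called higher with the no_feature share under 13 of 14 alternatives and on leaving out each of the 11 mice, and not in males only (0.17, 0.20 and 0.14, with 2 residual degrees of freedom). Slopes reached 0.54, 0.27 and 0.34 over the alternatives. Gas5 was called under none of these. Neat1 was called in the fit with a replicate block (mice of the same sex and number paired) and the share. There its slope was 0.301 (edgeR adjusted p = 0.000401), and that of Malat1 was 0.295. The block fit has a term for each pair, and CD male 3 has no FD partner, so few residual degrees of freedom remain. The numbers were also not taken as pairs, as given below. Neat1 was called as well without CD female 3, FD female 1 or FD female 2. The slopes of Neat1 on leaving out a mouse were 0.045 to 0.14, and its correlation was -0.027 without the 2 mice farthest from the median share. The cause was not tested.

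The number of genes called with the share was 521 with diet and sex as covariates, 187 with the replicate block, 185 in females only, 2 in males only and 316 to 4319 on leaving out a mouse (316 without CD female 1 and 1420 without FD female 3). Called genes split into 1645 higher and 1811 lower with TMM, 1850 and 1397 with RLE size factors, 2000 and 1242 without TMM scaling, 1494 and 2451 with unique reads as library size, 1988 and 1429 with filterByExpr, 381 and 140 with diet and sex, and 177 and 8 in females only. With the block, 4 of the 20 speckle and splicing genes and 0 of the 16 paraspeckle genes were called higher, against 0.675% of all genes. Over these scalings, the median slope of all genes ran from -0.011 with unique reads as library size to 0.0049 without TMM scaling. Whether more genes were called higher or lower differed between the scalings.

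For diet, 14 genes were called in the reported fit, 8 with filterByExpr, 1 with at least 10 counts in every mouse, 22 with the share and 5 with sex and the share as covariates, 25 with the replicate block, 2 in males only, 1 in females only, and 3 to 12 on leaving out a mouse. None of the 5 RNAs was among them in any of these fits. At an unadjusted p under 0.05, Malat1 passed with the replicate block (0.27, SE 0.092, unadjusted p = 0.00836, edgeR adjusted p = 0.522) and in males only (0.33, SE 0.11, unadjusted p = 0.00809, edgeR adjusted p = 1.0). Direction changed for Malat1 and Miat with the share (-0.087 and -0.050) and with sex and the share (-0.038 and -0.074), and for Gas5 in males only (0.022). On leaving out a mouse, values ran from 0.016 (without FD male 1) to 0.36 (without FD female 3) for Malat1, -0.085 to -0.026 for Gas5, -0.023 to 0.19 for Neat1, -0.085 to 0.12 for Miat and -0.0061 to 0.24 for Snhg11, and the FD to CD difference of the share from -0.047 percentage points (without CD female 1) to 0.863. It was 0.587 over the 5 pairs of the replicate block (exact sign-flip permutation p = 0.312).

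Between the sexes, 1257 genes were called, 9 with the share as covariate and 18 to 3244 on leaving out a mouse. With the share, Neat1, Miat, Snhg11 and Gas5 changed direction (-0.11, -0.11, -0.011 and -0.0026), as did Neat1 on leaving out CD male 2 (range -0.0076 to 0.25). The numbers of the mice were not taken as pairs, since the correlation of deviations from diet-by-sex means within the 5 pairs ran from -0.085 to 0.548.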

Other observations

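Ratios of counts within a mouse need no scaling between libraries. The ratio of Malat1 to Gas5 counts was 2.61 in CD female 1, which had the lowest no_feature share, 3.29 in FD female 3 and 3.76 in CD female 3, and reached 9.05 in CD male 3 and 9.71 in FD male 1. The ratio of Malat1 to Neat1 was between 2.52 and 2.62 in these 3 females and in FD female 1, and between 4.32 and 7.47 in the other 7 mice. These 4 females had 4 of the 5 lowest shares, and CD male 1, with a share of 10.4%, had a ratio of 5.65. Malat1 was 233 to 366 CPM in these 4 females and 533 to 872 in the other 7 mice. Ambiguous reads made up 1.71% to 1.78% of unique reads in these 4 females and 1.61% to 1.66% in the other 7 mice.

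The ratio of Miat to Snhg11 was narrower, from 0.336 in FD male 2 to 0.473 in CD female 1. The ratio of Neat1 to Gas5 ran from 0.996 in CD female 1 to 1.69 in CD male 2.

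Among genes of long noncoding types other than those described, 153 had a mean of at least 5 CPM, and 36 of these were called higher and 4 lower with the share, with a median slope of 0.031 on the log2 scale per percentage point. Of 11192 protein-coding genes at this level, 1186 were called higher and 1663 lower, with a median slope of -0.011. For diet, 0 of the 153 and 0 of the 11192 were called.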
